A study of Mus musculus with 11 samples.

Results

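Ceacam10, Ceacam1, Cd177, Bglap3, Fcrla, Hpse and Cd101 are 7 of the 27998 genes counted in this series. They were listed as genes with almost no reads in wild-type (WT) tissue macrophages (macs) and many in Zeb2KO macs of the brain or the lung. They were thus chosen by their counts in microglia and alveolar macs (AMs), and for those cells the values below describe that choice and are not tested. The description held for 5 of the 7 genes. Ceacam1 went against it, since it was already read in WT microglia and was not higher in either Zeb2KO population, and Cd101 followed it only in part, since it was read in both WT populations.

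Sorted macs of 5 organs were profiled by droplet-based single-cell RNA sequencing, 1 library per organ and genotype: microglia from brain, AMs from lung, Kupffer cells (KCs) from liver, splenic macs (SMs) and colon macs (CMs). WT mice were Zeb2fl/fl and lacked CRE, so their Zeb2 alleles were floxed but intact, and 1 further library of WT KCs came from Nr1h3fl/fl mice, which are floxed at the liver X receptor alpha gene. The labels give Fcgr1-crexZeb2fl/fl for all 5 Zeb2KO libraries. The study's single-cell methods instead state that the sequenced KCs came from mice with Clec4f-cre and the AMs from mice with Itgax-cre. Labels and paper thus disagree on the driver behind those 2 libraries. By the study Clec4f-cre also acts in a minor population of B cells, and Itgax-cre in other cells that express CD11c. Fcgr1-cre is not restricted to macs and by the study also acts in B cells, T cells and dendritic cells that lack CD64, and some cells of CRE+ mice outside the brain had kept a Zeb2 allele, so a Zeb2KO library can hold cells that still express functional ZEB2. All mice were C57Bl/6, of both sexes and 6 to 8 weeks old, and the number of mice behind each library is not given in the sources used here.

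The 11 libraries held 51712 barcodes and 45167 cells used here, with median depths of 2218 to 9208 unique molecular identifiers (UMIs, each standing for 1 captured transcript) per cell. Cells of other types made up 0 to 22.7% of a library and were left out. No pair of libraries shared more than 76 barcodes, or more than 1.45% of the smaller library. All 10 macrophage markers had at least 20 CPM (UMIs of a gene scaled to a library total of 1000000) in 9 libraries, and in AMs 6 of 10 did so in WT and 9 of 10 in Zeb2KO. Zeb2 itself was read in every library and was higher in Zeb2KO, from 475 to 1747 CPM in microglia and from 312 to 481 CPM in AMs. Tags from the 3′ end lie outside the deleted part of the gene, so this level checks neither the deletion nor the labels.

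ZEB2 is a zinc-finger and homeodomain transcription factor that binds E-box motifs and mostly represses transcription. It is best known for silencing epithelial genes during epithelial to mesenchymal transition, and in the blood system it acts in the development of several myeloid and lymphoid cells. The 7 genes are known from quite different cells. Ceacam10 and Ceacam1 encode CEA-related cell adhesion molecules, the first a small secreted protein and the second a receptor with inhibitory signalling motifs. Cd177 encodes a GPI-anchored glycoprotein of neutrophils, and Bglap3 is a gene of the mouse osteocalcin cluster. Fcrla encodes an intracellular Fc receptor-like protein known from B cells, Hpse encodes heparanase, which cleaves heparan sulphate chains, and Cd101 encodes an immunoglobulin superfamily receptor of myeloid and T cells.

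The start regions of 2 of these genes, Ceacam10 and Ceacam1, are near copies of each other although the genes behaved differently, and are shown for that contrast. Ceacam10 lies at chr7:24777206-24784657 on the plus strand and Ceacam1 at chr7:25461707-25477603 on the minus strand (GRCm38, GENCODE M21). In RefSeq promoter windows of 300 bases (build GRCm38.p6, 250 bases before to 50 after the annotated start), the 2 regions aligned without gaps over 282 bases, of which 262 were identical (92.9%). The Ceacam10 bases lie at chr7:24776935-24777216, plus strand, and the Ceacam1 bases at chr7:25477594-25477875, minus strand. Capitals mark the 20 bases that differ.
Ceacam10: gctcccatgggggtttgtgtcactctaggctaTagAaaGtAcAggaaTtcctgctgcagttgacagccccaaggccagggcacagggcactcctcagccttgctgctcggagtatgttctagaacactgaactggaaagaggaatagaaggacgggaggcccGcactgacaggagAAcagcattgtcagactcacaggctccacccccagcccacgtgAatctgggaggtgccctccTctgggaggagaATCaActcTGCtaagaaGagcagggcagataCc
Ceacam1: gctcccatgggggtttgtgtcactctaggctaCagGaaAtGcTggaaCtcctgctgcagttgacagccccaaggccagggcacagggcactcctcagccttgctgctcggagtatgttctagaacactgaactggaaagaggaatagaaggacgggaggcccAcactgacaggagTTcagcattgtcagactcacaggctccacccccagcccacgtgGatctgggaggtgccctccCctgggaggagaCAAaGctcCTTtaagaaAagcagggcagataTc
Of 32849 other promoter windows compared with that of Ceacam10, Ceacam1 was the only one identical at 80% or more of the bases, and the next, Atp11a, reached 41.7%. Ceacam1 is also overlapped by the antisense gene 4732471J01Rik, so its counts are uncertain where strand was not used.

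ZEB proteins are known to bind the sequence CACCTG, a form of the E-box CANNTG that other factors bind too. It was searched on both strands (CAGGTG on the reverse) in the 10 promoter windows that RefSeq gave for the 7 genes. It was found in 3 windows of 2 genes, Fcrla and Bglap3. Over all windows of the same length, 20.2% of 32851 held it, and 2.88% held it more than once. The Fcrla window is chr1:170927534-170927833 and the Bglap3 window chr3:88372692-88372991, both on the minus strand, and capitals mark the matches.
Fcrla: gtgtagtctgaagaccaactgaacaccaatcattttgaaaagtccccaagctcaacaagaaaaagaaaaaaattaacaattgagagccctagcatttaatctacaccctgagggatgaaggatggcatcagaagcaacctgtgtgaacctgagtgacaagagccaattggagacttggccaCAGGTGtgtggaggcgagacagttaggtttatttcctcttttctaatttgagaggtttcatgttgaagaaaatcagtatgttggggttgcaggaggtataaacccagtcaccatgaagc
Bglap3: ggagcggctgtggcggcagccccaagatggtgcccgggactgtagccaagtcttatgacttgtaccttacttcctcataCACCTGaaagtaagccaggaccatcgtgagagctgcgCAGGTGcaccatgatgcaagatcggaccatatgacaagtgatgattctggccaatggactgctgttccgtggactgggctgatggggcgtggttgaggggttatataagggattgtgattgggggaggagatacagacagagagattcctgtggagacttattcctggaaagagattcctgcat
In Fcrla the match began 69 bases before the start. In the Bglap3 window shown there were 2 matches, another Bglap3 window had 3 and its remaining one none. A match of these letters is a description of the window and no evidence of binding.

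In microglia, 3 of the 7 genes went from 3 to 5 UMIs in the whole WT library to 3074 or more in the Zeb2KO library. Ceacam10 had 4 UMIs in 2830 WT microglia (0.324 CPM, 95% Poisson interval 0.0884 to 0.830) and 6839 UMIs in 3243 Zeb2KO microglia (404 CPM, 395 to 414), a ratio of 1246 (486 to 4574). Fcrla went from 3 UMIs (0.243 CPM) to 4150 UMIs (245 CPM), a ratio of 1008 (345 to 4890). Hpse went from 5 UMIs (0.405 CPM) to 3074 UMIs (182 CPM), a ratio of 448 (192 to 1381). These intervals, and all others given here, cover counting error only, since each group is 1 library and no replicate error can be had. Transcripts were seen in most Zeb2KO cells: Ceacam10 in 59.9% (exact binomial 95% interval 58.2 to 61.6), Fcrla in 56.1% (54.4 to 57.8) and Hpse in 53.2% (51.5 to 54.9), against 0.106 to 0.177% of WT cells. Brought to an equal 1500 UMIs per cell, the Zeb2KO shares were 34.0, 27.3 and 22.0%, and in WT none of the 3 was seen in more than 2 of 2830 cells. No cell of another type was left in either microglia library, so a share in cells that should lack the genes could not be given for them.

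Cd101 changed by less. Its level was 6.49 CPM in WT microglia and 32.8 CPM in Zeb2KO microglia, a ratio of 5.06 (3.99 to 6.47), and the share of cells with a UMI was 2.69 and 15.1%. At equal depth these shares were 0.989 and 4.75%. Ceacam1 lay the other way, at 38.7 CPM (35.3 to 42.3) in WT and 28.5 CPM (26.0 to 31.2) in Zeb2KO microglia, with a UMI in 15.2 and 13.6% of cells, or 5.87 and 4.66% at equal depth. WT microglia thus had the highest Ceacam1 level of all 11 libraries. The remaining genes were close to absent in microglia, with 0 and 12 UMIs of Cd177 and no UMI of Bglap3 in either library. For Bglap3, 0 of 3243 Zeb2KO cells, at the same floor of 3 counts, allows a share of cells with a UMI of up to 0.0925%, which does not limit the share of cells that express it.

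In AMs a different set was on. Bglap3 had 1 UMI in 6974 WT AMs (0.0364 CPM, 0.000922 to 0.203) and 50992 UMIs in 6252 Zeb2KO AMs (1368 CPM, 1356 to 1380), a ratio of 37541 (6738 to 1482820). Ceacam10 had no UMI in WT AMs and 11762 in Zeb2KO AMs (316 CPM, 310 to 321), at least 2886-fold higher when WT is set at a floor of 3 UMIs for the library. Cd177 had 1 UMI in WT and 8318 UMIs in Zeb2KO AMs (223 CPM, 218 to 228), a ratio of 6124 (1099 to 241907). Bglap3 thus had the highest level of the 7 genes in any library, with a ratio whose interval overlapped that of Cd177, and single cells held up to 162 of its UMIs. A UMI was seen in 60.3% (59.1 to 61.6) of Zeb2KO AMs for Bglap3, 48.5% (47.3 to 49.8) for Ceacam10 and 44.5% (43.3 to 45.7) for Cd177, or 44.5, 24.4 and 19.5% at 1500 UMIs per cell.

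Cd101 was again higher but present before, at 16.1 CPM in WT and 44.9 CPM in Zeb2KO AMs, a ratio of 2.78 (2.51 to 3.10). Its UMIs were in 5.99 and 22.4% of cells, or 2.19 and 5.44% at equal depth. Fcrla and Hpse, which were on in Zeb2KO microglia, had only 23 and 19 UMIs in all Zeb2KO AMs (0.617 and 0.510 CPM). Ceacam1 was at 2.11 CPM in WT and 1.61 CPM in Zeb2KO AMs, and their intervals overlapped.

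Bglap3 has close copies in Bglap and Bglap2, 10.8 and 4.99 kb away on chromosome 3, and reads from the 3 genes can be split wrongly between them. Bglap had 2 UMIs in WT and 142 UMIs in Zeb2KO AMs (3.81 CPM), and Bglap2 had 0 and 26 UMIs (0.697 CPM). Both were far below Bglap3, and neither had more than 1 UMI in any other Zeb2KO library.

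Cells of other types in the Zeb2KO AM library also held these transcripts, and the AM shares should be read against them. Only 24 such cells were found, 18 in a cluster led by Ccl5, Jchain and Gzma and 6 in a cluster led by Cldn5 and Ramp2, with a median of 3934 UMIs against 5682 in AMs. Bglap3 was seen in 10 of the 24 (41.7%, 22.1 to 63.4), at 884 CPM (717 to 1078), Ceacam10 in 6 (25%) at 128 CPM, and Cd177 in 2 (8.33%) at 18.2 CPM. The AMs lay above them in share and in CPM for all 3 genes, by the least for Bglap3, where the intervals of the share overlapped and those of the CPM did not. Whether these 24 barcodes carried free RNA or a second cell was not tested.

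**Figure D1:**
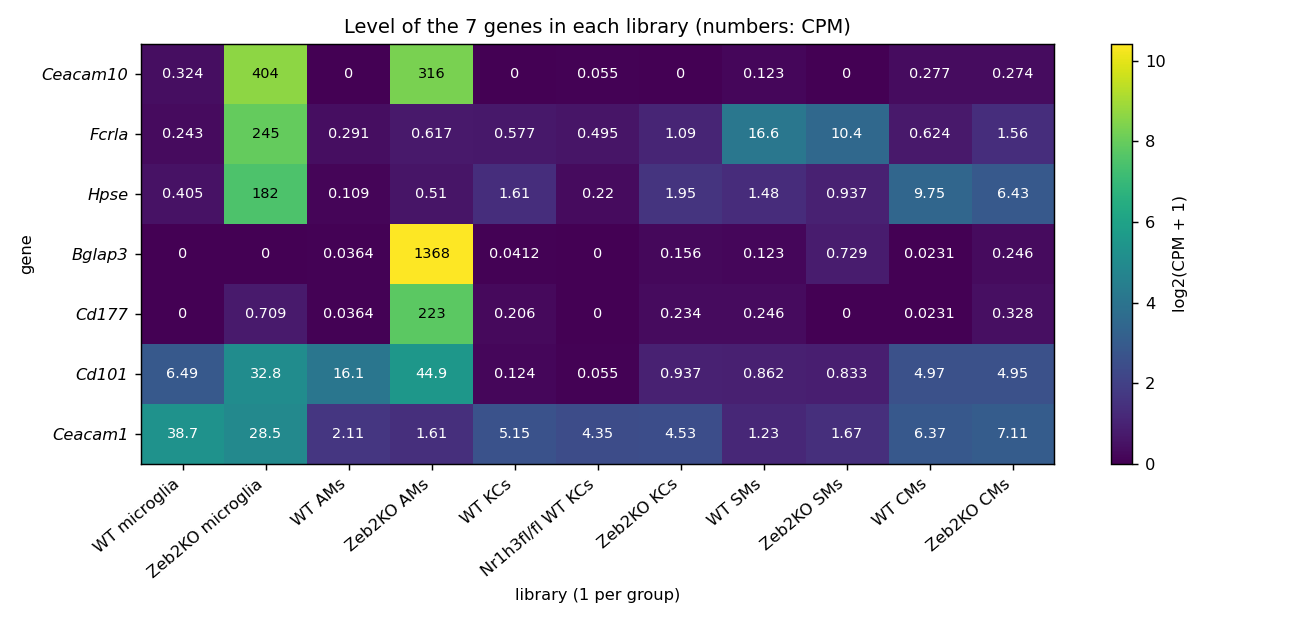
Level of the 7 genes in each of the 11 libraries: rows are genes, columns are libraries, numbers are CPM and colours are log2(CPM + 1). Values over 100 CPM appear only in the Zeb2KO microglia and Zeb2KO AM columns, and Ceacam10, at 404 and 316 CPM, is the 1 gene with such a value in both.

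Counts over all genes give the scale. A gene was called higher where its log2 ratio of CPM + 1 was at least 1 and it reached 20 CPM in the higher library. In microglia 4.27% of 5922 genes were called higher, and 4 of the 5 listed genes that reached 20 CPM were among them. In AMs the figures were 4.35% of 5812 genes, and 4 of 4 listed genes. With a floor of 50 CPM in place of 20, Cd101 was no longer called in either organ. The median log2 ratio of the 7 genes was 2.17 in microglia and 1.42 in AMs, and that of all genes considered was -0.09 and -0.31. Nothing is read from these counts, since the same ratios chose the genes.

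The words near-zero and high were then given numbers, at most 1 CPM in WT and at least 20 CPM in Zeb2KO. Of 5447 genes at 20 CPM or more in Zeb2KO microglia, 26 (0.477%) met this rule. Ceacam10, Fcrla and Hpse were the 3 highest of those not on a sex chromosome. Among the next were Mrap2 at 102 CPM, the chemokine receptor gene Cxcr2 at 96.2 CPM, Ttr at 59.9 and Lax1 at 55.8 CPM. Of 4982 genes in Zeb2KO AMs, 39 (0.783%) met it. Bglap3, Ceacam10 and Cd177 were among the 5 highest in level of those not on a sex chromosome. S100a9, which encodes a calcium-binding protein of neutrophils and monocytes, was first at 9361 CPM, Krt8 lay between Ceacam10 and Cd177 at 242 CPM, and Il1f9, Tarm1 and Auts2 followed at 114, 87.7 and 79.9 CPM. The microglia and AM sets shared only Ceacam10 and Tjp3, which is 7.69% of the microglia set and 5.13% of the AM set. Hpse, at 0.405 CPM in WT microglia, was the gene of the 7 nearest to the WT limit from inside, and Cd101, at 6.49 and 16.1 CPM in WT, lay outside it in both populations, as Ceacam1 did. The reverse pattern, 20 CPM or more in WT and at most 1 CPM in Zeb2KO, was met by 7 genes in microglia and 2 in AMs. In the pair of WT KC libraries, which differ by floxed gene and not by deletion, 0 genes met the rule in one direction and 6 in the other.

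**Figure D2:**
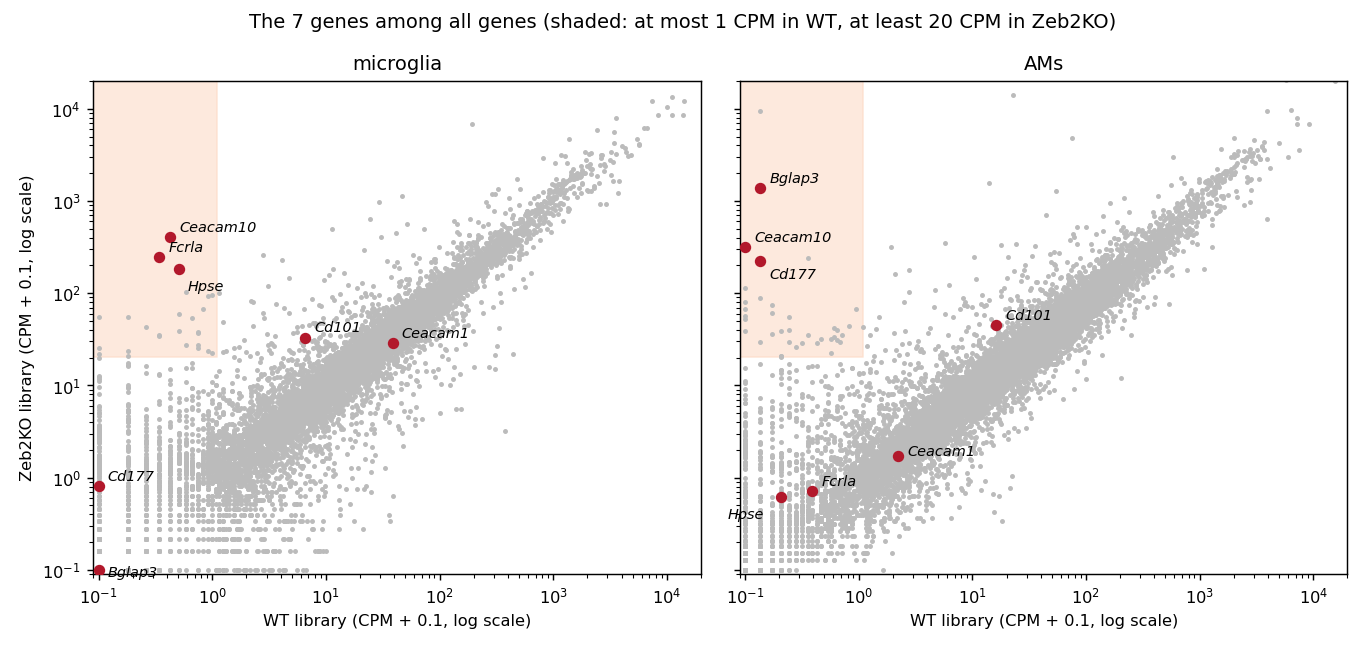
Each point is a gene, with its CPM + 0.1 in the WT library on the horizontal and in the Zeb2KO library on the vertical axis, both on log scales, for microglia (left) and AMs (right); the 7 genes are in red. Shading marks at most 1 CPM in WT and at least 20 CPM in Zeb2KO, and it holds Ceacam10 in both panels, Fcrla and Hpse on the left, and Bglap3 and Cd177 on the right.

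The remaining 3 organs were not used to list the genes, and there the switch was not seen at the level of whole libraries. Cells that kept a Zeb2 allele can dilute such a level. In CMs, the cluster with Ms4a1 among its leading genes held only 19.1% of the Zeb2KO library, against 1.22% of the WT library. The share was larger in the other organs. In KCs, the cluster led by Siglecf held 42.3% of the Zeb2KO and 0.0231% of the WT library. In SMs, a cluster led by Hunk and Nfasc held 44.8% of the Zeb2KO and 1.13% of the WT library. Levels of the 7 genes in clusters of this kind are not given here for these organs. Among the genes called higher by the same rule, 3.38% of genes in KCs, 2.34% in SMs and 1.07% in CMs, there were 0 of the 7, since none reached 20 CPM in any of these libraries. The 2 WT KC libraries gave 0.487% called higher between them. By the rule of at most 1 and at least 20 CPM, 4 genes in KCs (0.0781%), 5 in SMs (0.0847%) and 2 in CMs (0.0401%) were found, again with 0 of the 7. With the Nr1h3fl/fl library as WT there were 13 in KCs, also with 0 of the 7.

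Ceacam10 had 0 UMIs in 4033 WT KCs, 1 UMI in 3468 Nr1h3fl/fl WT KCs and 0 UMIs in 3904 Zeb2KO KCs, which allows a share of cells with a UMI of up to 0.0768% in the last at the floor of 3 counts. It had 1 UMI in WT SMs and 0 in Zeb2KO SMs, and 12 UMIs in WT and 10 in Zeb2KO CMs (0.277 and 0.274 CPM). In the order of levels, Zeb2KO microglia stood first and Zeb2KO AMs second, with intervals apart, and the other 9 libraries lay between 0 and 0.324 CPM, each overlapping its neighbour in the order. By the paper, AMs and KCs were sequenced on another machine than microglia, SMs and CMs. An order across these organs cannot tell organ and machine apart.

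Bglap3 had 1, 0 and 4 UMIs in WT, Nr1h3fl/fl WT and Zeb2KO KCs, 1 and 7 UMIs in WT and Zeb2KO SMs, and 1 and 9 UMIs in WT and Zeb2KO CMs. Its CPM were higher in the Zeb2KO library of each organ, but the highest was 0.729 CPM, in Zeb2KO SMs, where 5 of the 7 UMIs came from 1 cell. Cd177 had 5, 0 and 6 UMIs in the same 3 KC libraries, 2 and 0 UMIs in SMs, and 1 and 12 UMIs in CMs. In CMs the ratio was 14.2 (2.10 to 608) for Cd177 and 10.7 (1.477 to 467) for Bglap3, from 1 UMI each in WT and at levels of 0.328 and 0.246 CPM in Zeb2KO.

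Fcrla was read in spleen without any deletion, at 16.6 CPM in WT SMs (13.9 to 19.7) and 10.4 CPM in Zeb2KO SMs (8.47 to 12.7), a ratio of 0.626 (0.478 to 0.816). Its UMIs in SMs were concentrated in 1 cluster led by Fcer2a, a gene of B cells, which gave 66 of 135 UMIs in WT from 206 of 3202 cells and 43 of 100 in Zeb2KO from 130 of 2994 cells. The summed level of the 8 B cell markers in these libraries was 388 and 404 CPM, the highest of all libraries, with none of the 8 at 0. Of these markers 7 were lower in Zeb2KO SMs, among them Cd79a at 83.5 and 59.5 CPM, in the same direction as Fcrla, and only Ms4a1 was higher, at 64.9 and 178 CPM. Without the cluster led by Fcer2a, an alternative chosen after seeing the data, Fcrla stood at 9.31 CPM in WT and 6.29 CPM in Zeb2KO SMs. The part of B cells in the Fcrla level was not tested. In the cells left out as B cells, Fcrla was seen in 37.2% of 637 cells from WT SMs and 45.6% of 375 from Zeb2KO SMs. In KCs it was at 0.577, 0.495 and 1.09 CPM (WT, Nr1h3fl/fl WT and Zeb2KO), and in CMs at 0.624 CPM in WT and 1.56 CPM in Zeb2KO, a ratio of 2.50 (1.56 to 4.11), opposite in direction to SMs. In Zeb2KO microglia, where Fcrla stood at 245 CPM, the same B cell markers summed to 27.0 CPM, against 57.5 CPM in WT microglia, with 3 of 8 at 0. Most of both sums was 1 gene, Cd79b, at 56.2 CPM in WT and 23.3 CPM in Zeb2KO microglia.

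Hpse was read in CMs of both genotypes, at 9.75 CPM (8.84 to 10.7) in WT and 6.43 CPM (5.63 to 7.31) in Zeb2KO, with a UMI in 8.33 and 5.41% of cells. Its ratio there, 0.660 (0.560 to 0.776), lay below 1. A kept CM cluster of 39 WT and 30 Zeb2KO cells led by smooth muscle genes (Actg2, Myh11) had Hpse at 54.1 and 41.2 CPM, and without it, an alternative chosen after seeing the data, CMs stood at 9.42 and 6.22 CPM. The other libraries had 1.61, 0.220 and 1.95 CPM in WT, Nr1h3fl/fl WT and Zeb2KO KCs, and 1.479 and 0.937 CPM in WT and Zeb2KO SMs. The 2 WT KC libraries differed more from each other, 39 against 4 UMIs, than the WT and Zeb2KO libraries of liver did, 39 against 50 UMIs.

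Cd101 stood at 4.97 CPM in WT and 4.95 CPM in Zeb2KO CMs, a ratio of 0.997 (0.814 to 1.22), and at 0.862 and 0.833 CPM in SMs. In liver it had 3 UMIs in WT, 1 in Nr1h3fl/fl WT and 24 in Zeb2KO KCs, a ratio of 7.57 (2.30 to 39.3) at a level of only 0.937 CPM. Ceacam1 was at 5.15, 4.35 and 4.53 CPM in WT, Nr1h3fl/fl WT and Zeb2KO KCs, 1.23 and 1.67 CPM in WT and Zeb2KO SMs, and 6.37 and 7.11 CPM in WT and Zeb2KO CMs. The intervals of its ratio held 1 in all 3 organs, the widest running from 0.577 to 3.33 in SMs. Without the SM cluster led by Fcer2a, which held 8 of its 10 WT UMIs, Ceacam1 had 2 UMIs in WT SMs and 12 UMIs in Zeb2KO SMs (0.270 and 1.32 CPM).

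Set in order over the 11 libraries, with the same limit on orders across organs, the other genes gave the following. For Fcrla, Zeb2KO microglia were followed by WT SMs and then Zeb2KO SMs, each apart from the next beyond its interval, and all others were at 1.56 CPM or less. For Hpse, Zeb2KO microglia were followed by WT CMs and then Zeb2KO CMs, also apart, and all others were at 1.95 CPM or less. Cd101 descended from Zeb2KO AMs through Zeb2KO microglia and WT AMs to WT microglia with intervals apart, and then to the CM libraries, where the interval of WT CMs overlapped that of WT microglia. For Ceacam1 the order was WT microglia, Zeb2KO microglia, Zeb2KO CMs and WT CMs, of which the CM libraries alone overlapped. Bglap3 and Cd177 were highest in Zeb2KO AMs, and no other library exceeded 0.729 CPM for either.

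Some of the other genes that the study used to find cells without ZEB2 (it used Cd101 too) were higher in these same libraries. In KCs Siglecf was at 1.484 CPM in WT and 157 CPM in Zeb2KO, and Ms4a1 at 0.660 and 100 CPM. In SMs Siglecf was at 0.370 CPM from 3 UMIs and 14.99 CPM from 144 UMIs, and in CMs Ms4a1 was at 0.185 and 32.7 CPM. Epcam, another such gene, was at low levels. In KCs it was at 0.124 CPM in WT and 0.351 CPM in Zeb2KO, a ratio of 2.84 (0.709 to 16.3). In SMs it was at 0.739 and 2.81 CPM, a ratio of 3.80 (1.54 to 11.3), and in CMs at 3.58 and 7.52 CPM, a ratio of 2.10 (1.72 to 2.58). Siglecf was at 0.624 CPM in WT and 3.47 CPM in Zeb2KO CMs. CMs and SMs were sorted as cells without SiglecF protein, which can set the Siglecf level in those libraries.

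The 3 organs together allowed a test, with the organ as a block in edgeR's quasi-likelihood test on UMIs summed per library. Over 12472 genes 0 (0%) passed a Benjamini-Hochberg adjusted p of 0.05, with 1208 at an unadjusted p under 0.05, while DESeq2 called 196 of 12253 genes. Ceacam10, Cd177 and Bglap3 did not pass the filter on low counts. Tested by edgeR without that filter, among 19399 genes of which 67 were called, their log2 fold changes were -0.34 for Ceacam10 (adjusted p = 0.973), 0.96 for Cd177 (adjusted p = 0.916) and 2.56 for Bglap3 (adjusted p = 0.486). By edgeR the log2 fold changes of the other 4 genes were 0.05 for Ceacam1 (adjusted p = 0.961), -0.32 for Hpse (adjusted p = 0.785), 0.61 for Cd101 (adjusted p = 0.807) and 0.39 for Fcrla (adjusted p = 0.844). DESeq2 called 0 of these 4 as well. Leaving out the KC pair left 0 genes called by edgeR, leaving out the SM pair gave 2 and leaving out the CM pair 39, with 0 of the 4 among them. The log2 fold changes depended on single pairs. Cd101 ran from -0.03 without KCs to 1.38 without CMs, and Fcrla from -0.10 without CMs to 1.10 without SMs. Hpse ran from -0.63 without KCs to -0.08 without CMs, and Ceacam1 from -0.04 without SMs to 0.22 without KCs. The median over all genes tested was -0.01. In simulated data of this design edgeR recovered 70% of 2-fold and 96% of 4-fold changes. Those changes had the same fold in all 3 organs and were placed on genes drawn from all those tested. Such recovery does not carry over to the listed genes or to real shifts that differ by organ. By edgeR on the real data, Il1f9 had a log2 fold change of 10.7 at an adjusted p of 0.149. The p-values of the real test measure the spread between organs, which need not respond alike.

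**Figure D3:**
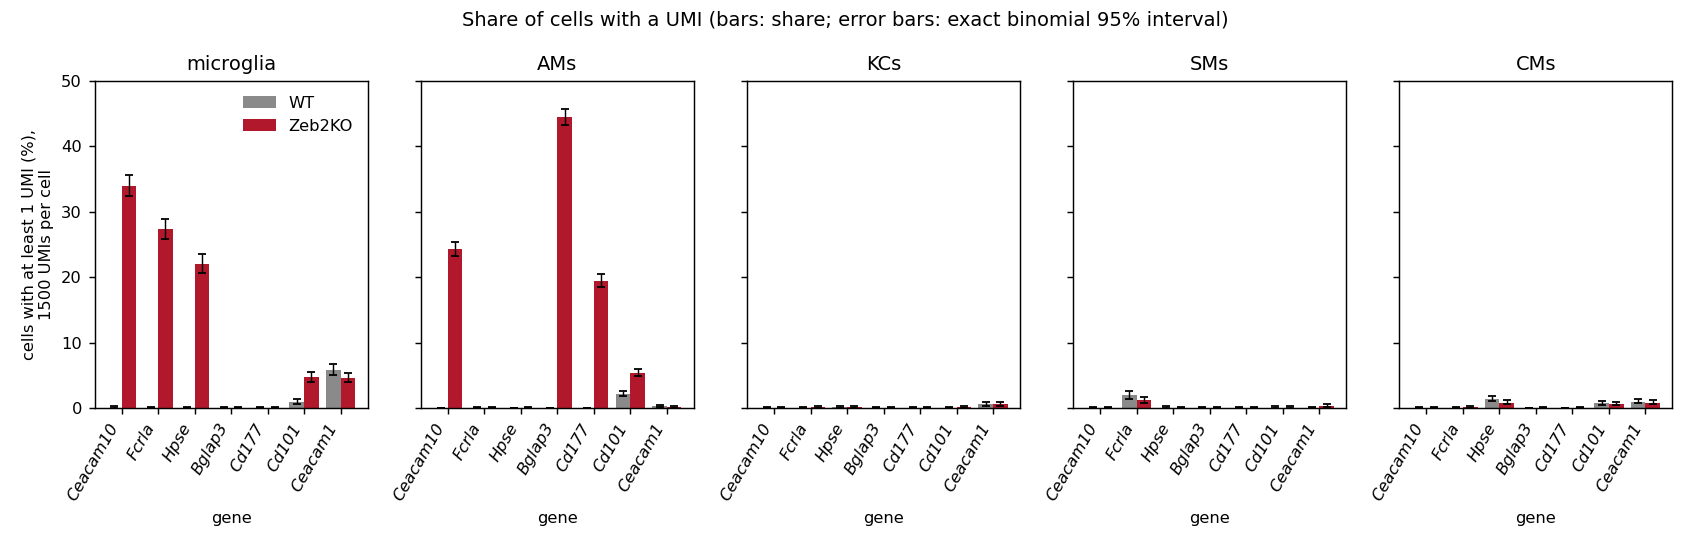
Share of cells with at least 1 UMI of each gene after cells were brought to 1500 UMIs, in WT (grey) and Zeb2KO (red) libraries of the 5 organs, with exact binomial 95% intervals as error bars. Cells with fewer than 1500 UMIs were left out. Bars over 10% appear only in the Zeb2KO microglia (Ceacam10, Fcrla, Hpse) and the Zeb2KO AMs (Bglap3, Ceacam10, Cd177), and the 3 organs on the right stay near 0 in both genotypes.

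Within Zeb2KO microglia, at equal depth, cells with more than 1 of the genes were about as frequent as the product of the shares gives. At 1500 UMIs per cell, 35.2% of cells held none of the 7 genes, 40.8% held 1, 20.4% held 2, 3.30% held 3 and 0.339% held 4. At least 2 genes were seen in 24.1% of Zeb2KO and 0.0353% of WT microglia. Without thinning, 90.5% of Zeb2KO microglia held at least 1 gene and 66.7% at least 2. Ceacam10 and Fcrla were found together in 10.3% (9.30 to 11.4) of cells against 9.29% given by the product of their shares, a ratio of 1.11. Ceacam10 and Hpse had a ratio of 1.10, and Fcrla and Hpse of 0.957. All 3 were seen in 2.07% of cells and the product was 2.05%. Without thinning, all 3 were seen in 22.3% of cells against 17.9%, and none of the 3 in 12.2% against 8.24%.

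Clusters of microglia, built without the 7 genes, gave similar values. The 3 largest Zeb2KO clusters held 1279, 1043 and 686 cells, and Ceacam10 was at 383, 468 and 353 CPM, Fcrla at 231, 293 and 204 CPM and Hpse at 168, 188 and 189 CPM in them. A cluster of 189 cells led by interferon-induced genes (Ifit1, Rsad2) had the highest levels of the 4, with Ceacam10 at 526 CPM (483 to 572), Fcrla at 308 CPM (276 to 344) and Hpse at 236 CPM (207 to 267). For Ceacam10 and Fcrla these intervals overlapped those of the cluster of 1043 cells (449 to 488 and 278 to 309), and for Hpse they overlapped none of the 3 largest. In a dividing cluster of 24 cells (Top2a, Mki67) Ceacam10 was at 177 CPM (123 to 248). The genes were therefore on in each of these clusters, and in the dividing cells Fcrla (198 CPM, 140 to 272) and Hpse (135 CPM, 88.5 to 199) overlapped other clusters.

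In Zeb2KO AMs the genes were concentrated in the same cells. At equal depth 41.0% of cells held none of the 7 genes, 31.4% held 1, 20.5% held 2, 6.75% held 3 and 0.336% held 4, and at least 2 were seen in 27.6% of Zeb2KO and 0.0288% of WT AMs. Ceacam10 and Cd177 were found together in 8.49% (7.81 to 9.21) of cells against a product of 4.74%, a ratio of 1.79. The ratio was 1.42 for Bglap3 with Ceacam10 and 1.46 for Bglap3 with Cd177. All 3 were seen in 5.52% of cells against a product of 2.11%, and in 29.1% against 13.03% without thinning.

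This concentration followed the clusters. The largest Zeb2KO cluster, 3294 cells led by the keratin genes Krt18 and Krt8, had Bglap3 at 1914 CPM, Ceacam10 at 412 CPM and Cd177 at 296 CPM, and a cluster of 418 cells led by Krt6b had 1610, 631 and 407 CPM. A cluster of 1731 cells led by Spag11b and Ddah1 had Bglap3 at 82.8 CPM, Ceacam10 at 19.2 CPM and Cd177 at 9.73 CPM. Those levels were not above, beyond counting error, those in the 47 Zeb2KO cells that fell into the main WT cluster, whose values were 139 CPM (82.6 to 220), 15.5 CPM (1.88 to 55.9) and 7.74 CPM (0.196 to 43.1), and whether they come from free RNA was not tested. The low cluster held 106 WT cells too, in which none of the 3 genes had a UMI. The study describes a group of AMs from CRE+ mice that kept a Zeb2 allele and lacked Epcam and Cd101. Whether the low cluster holds those cells was not tested, so the AM shares can mix cells with and without functional ZEB2. Dividing cells gave a comparison inside 1 cluster, where 216 WT cells had no UMI of the 3 genes and 277 Zeb2KO cells had Bglap3 at 809 CPM, Ceacam10 at 129 CPM and Cd177 at 126 CPM. A cluster of 215 cells led by C1qa, C1qb and C1qc had intermediate levels, 337, 62.5 and 54.5 CPM. Within the largest cluster the ratio of cells with both genes to the product of the shares was 1.03 for Bglap3 with either of the other genes and 1.22 for Ceacam10 with Cd177.

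**Figure D4:**
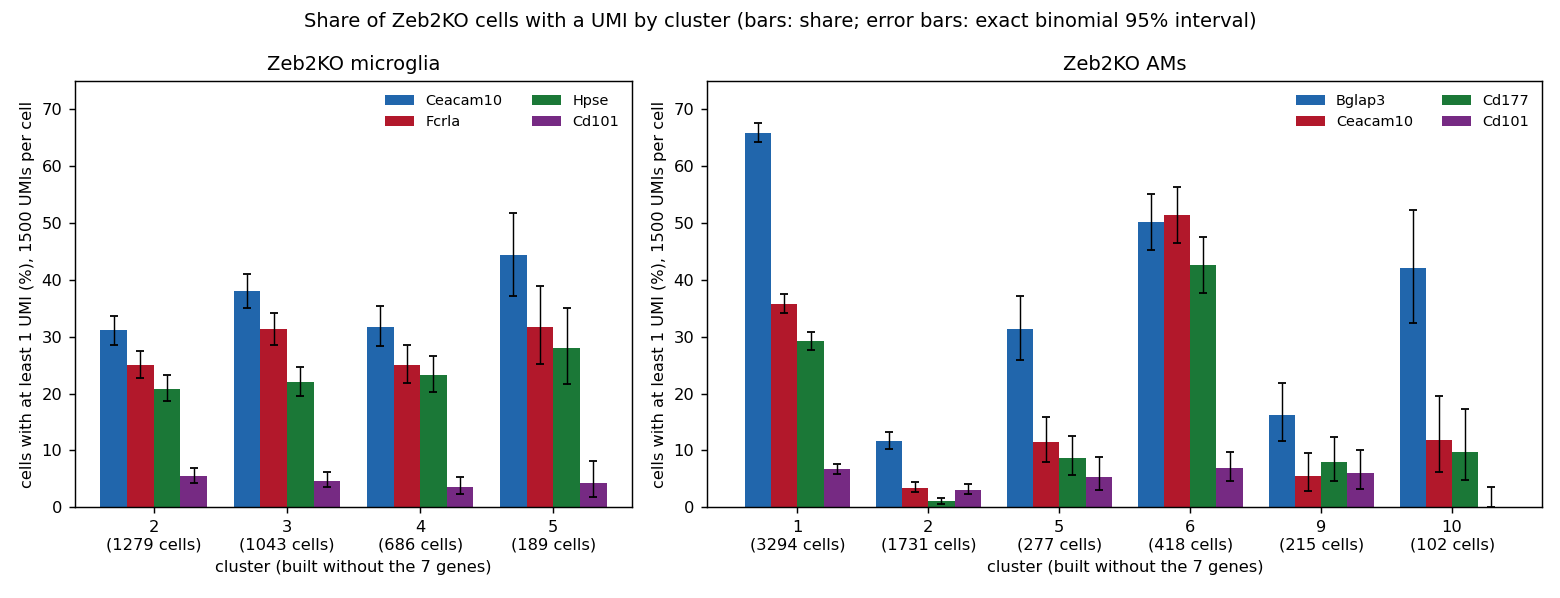
Share of Zeb2KO cells with at least 1 UMI of 4 genes at 1500 UMIs per cell, by cluster of at least 100 cells (number and cells on the horizontal axis), in microglia (left) and AMs (right), with exact binomial 95% intervals as error bars. Among the clusters shown, Ceacam10 in microglia lies between 31.1 and 44.4%, and Bglap3 in AMs runs from 11.7% in cluster 2 to 65.9% in cluster 1.

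Ceacam10 and Cd177 are also neighbours in the genome, with 16.9 kb between them on chromosome 7. In Zeb2KO AMs both were high, and of the 3 pairs there theirs was the least often seen but stood highest over its product, at the ratio of 1.79. In Zeb2KO microglia Ceacam10 was at 404 CPM while Cd177 had 12 UMIs (0.709 CPM). The neighbours were therefore high together in one organ and not in the other.

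**Figure D5:**
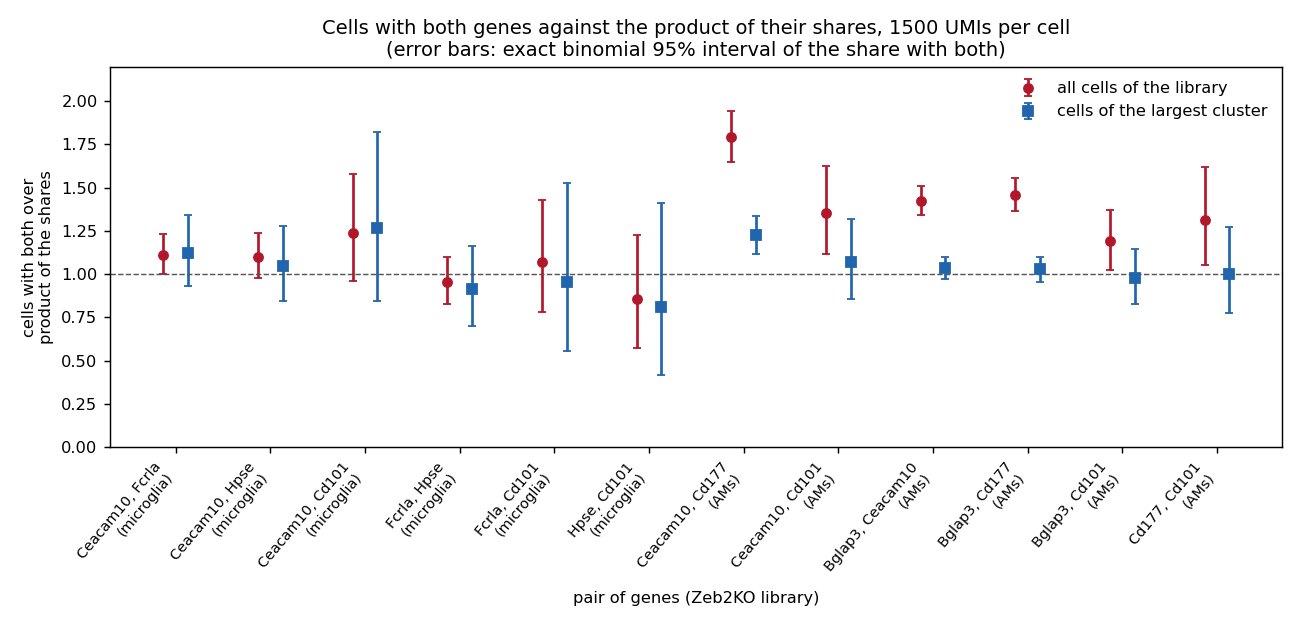
Share of cells with both genes of a pair divided by the product of the shares, at 1500 UMIs per cell, in all cells of the Zeb2KO library (red circles) and in its largest cluster (blue squares), with error bars for the exact binomial 95% interval of the share with both; the dashed line is 1. In AMs the pairs of Bglap3, Ceacam10 and Cd177 lie at 1.42 to 1.79 over all cells and at 1.03 to 1.22 within the cluster, and in microglia the pairs of Ceacam10, Fcrla and Hpse lie at 0.957 to 1.11 over all cells.

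Depth moved with the AM genes. In the 20% of Zeb2KO AMs with the fewest UMIs Bglap3 was at 345 CPM, and in the 20% with the most it was at 1761 CPM. Ceacam10 ran from 50.4 to 503 CPM and Cd177 from 38.3 to 323 CPM over the same cells. In microglia the same split gave smaller differences, from 313 to 515 CPM for Ceacam10, 242 to 243 CPM for Fcrla and 173 to 213 CPM for Hpse. If the UMIs of a gene had been spread over the cells in proportion to depth, Bglap3 would have been seen in 99.3% of Zeb2KO AMs, Ceacam10 in 79.95% and Cd177 in 69.4%, against the 60.3, 48.5 and 44.5% observed. In microglia the gap was 84.8 against 59.9% for Ceacam10, 69.6 against 56.1% for Fcrla and 59.2 against 53.2% for Hpse. Cd101 showed almost no gap in either organ, at 15.6 against 15.1% in microglia and 23.0 against 22.4% in AMs. With only 0.162 and 0.255 of its UMIs expected in a cell of median depth, an uneven spread leaves little gap too. These values therefore do not show that Cd101 was spread evenly. From the cells with the fewest to those with the most UMIs it ran from 31.4 to 33.1 CPM in microglia and from 24.5 to 52.8 CPM in AMs.

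CMs were the only other organ in which at least 3 of the genes (Ceacam1, Hpse, Cd101 and Fcrla) had a UMI in at least 1% of Zeb2KO cells. After thinning, none of 3884 Zeb2KO CMs held both genes of any of the 6 pairs. At that depth Ceacam1 and Hpse were each seen in only 0.850% of cells, Cd101 in 0.669% and Fcrla in 0.180%. With so few cells the product of the shares gives almost no pairs either, so their absence says nothing on co-expression. Without thinning, at least 2 of the 7 genes were seen in 1.47% of Zeb2KO and 1.16% of WT CMs. In KCs Ceacam1 was the most often seen, in 2.72% of Zeb2KO cells, and in SMs Fcrla, in 2.77%.

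Genes that went with the number of listed genes seen per cell differed by organ. Over 6252 Zeb2KO AMs at equal depth, the highest Spearman correlations of 3460 genes were those of S100a9 (0.59) and S100a8 (0.56), which encode the subunits of calprotectin, then Trf (0.42), Chil3 (0.41) and Wfdc17 (0.41). S100a9 was seen in 98.7% of cells with at least 2 of the listed genes and in 57.5% of cells with none. Tmsb10 had the lowest value, -0.53, and was seen in 8.98 and 68.0% of the same cells. Zeb2 itself had 0.15, Epcam 0.25 and Siglecf -0.04. Over 3243 Zeb2KO microglia the values were weak, the highest being 0.17 for Ctss and for Cd74. These cells share a library and free RNA, and the values are descriptions with no test.

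Marker genes of the cells from which the listed genes are known were set beside them. The 15 neutrophil markers summed to 59.6 CPM in WT and 23893 CPM in Zeb2KO AMs, nearly all of it S100a8 (22.9 and 14194 CPM) and S100a9 (0.0364 and 9361 CPM). Cxcr2 was at 2.70 and 178 CPM and Csf3r at 12.02 and 96.0 CPM. Mmp8 was at 21.8 and 58.2 CPM, so that 5 of the 15 markers reached 20 CPM in Zeb2KO AMs. The other 10 were at 3.57 CPM or less, with Ly6g at 0.322 CPM, Mpo at 0.0537 CPM and 4 genes (Mmp9, Ngp, Camp, Elane) at 0. In microglia the list summed to 197 CPM in WT and 459 CPM in Zeb2KO, with 12 of 15 at 0 in the latter and Csf3r at 362 CPM. In the other 7 libraries the list summed to between 57.9 and 406 CPM.

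The 8 epithelial markers summed to 707 CPM in WT and 1267 CPM in Zeb2KO AMs, where Epcam went from 24.0 to 346 CPM and Krt8 from 0.255 to 242 CPM while Krt19 was at 548 and 484 CPM. In microglia the same list summed to 0.162 and 0.768 CPM. The 7 osteoblast markers summed to 112 CPM in WT and 60.8 CPM in Zeb2KO AMs, where Bglap3 stood at 1368 CPM, and were at 0.324 and 0.118 CPM in microglia. Nearly all of both AM sums was 1 gene, Runx2, at 112 CPM in WT and 55.9 CPM in Zeb2KO. Bglap, Bglap2 and Col1a1 were higher in Zeb2KO AMs, at 3.81 CPM or less, and Ibsp, Sp7 and Alpl were at 0 in both. The part of any of these cell types in the levels of the listed genes was not tested.

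Few relatives of the genes were called. Of 13 other Ceacam genes, none reached 20 CPM in microglia, AMs, KCs or CMs, and in SMs Ceacam16 was called higher, at 11.5 CPM in WT and 32.4 CPM in Zeb2KO. Among 5 Fc receptor-like genes, Fcrls, a microglial marker, was called lower, as 4.07% of genes were, at 2580 CPM in WT and 932 CPM in Zeb2KO microglia, opposite in direction to Fcrla, and Fcrl1 was at 11.5 and 39.8 CPM in KCs. Fcgr2b, which encodes the inhibitory Fc gamma receptor 31.0 kb from Fcrla, was at 268 and 892 CPM in microglia and at 52.6 and 209 CPM in AMs, where Fcrla stood at 0.291 and 0.617 CPM. Fcgr2b also differed between the WT KC libraries, at 21.8 and 5.12 CPM in WT and Nr1h3fl/fl WT. The 3 relatives of Cd101 (Igsf3, Igsf8, Ptgfrn), the 5 Ly6/uPAR genes near Cd177 and the 3 signalling partners of CEACAM1 (Ptpn6, Ptpn11, Havcr2) had 0 genes called in either direction in any organ. Per organ only 1 or 2 of the relatives of Cd101, 0 or 1 of the Ly6/uPAR genes and 2 or 3 of the partners reached 20 CPM.

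Heparanase acts on heparan sulphate, and 14 genes of its synthesis, carriers and trimming were set beside Hpse. In microglia, where 4.27% of all genes were called higher, 1 of the 5 that reached 20 CPM was, Sulf2, which encodes a sulphatase that edits heparan sulphate, at 5.68 CPM in WT and 24.1 CPM in Zeb2KO. In AMs, where 7.33% of all genes considered were called lower, 3 of 5 were, with Sulf2 at 249 and 34.8 CPM, the syndecan gene Sdc3 at 175 and 54.9 CPM and Hs6st1 at 36.2 and 15.7 CPM. In KCs, where 1.15% of all genes were called lower, 1 of 7 was, Sdc2, at 29.8 and 1.56 CPM. None was called in SMs or CMs.

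Neighbours in the genome were compared in the same way. Within 100 kb of Ceacam10, 7 genes were in the files. Apart from Cd177, 1 of them was called in AMs, Gm9844, which was lower, at 99.8 CPM in WT and 11.5 CPM in Zeb2KO. In AMs 3 of the 7 reached 20 CPM, and 7.33% of all genes considered were called lower. No neighbour of Ceacam10 was called in the other organs. Near Fcrla only Fcgr2b was called, higher in microglia, AMs and SMs, where 4, 3 and 3 neighbours reached 20 CPM. Of all genes considered, 4.27, 4.35 and 2.34% were called higher in these organs. No neighbour of Hpse, Cd101, Bglap3 or Ceacam1 was called in any organ, but few reached 20 CPM and could be called. Per organ these were 1 or 2 near Hpse, 3 to 5 near Bglap3, and 0 or 1 near Cd101 and near Ceacam1.

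The genes whose levels over the 11 libraries were most like each listed gene (Pearson r of log2(CPM + 1), 8033 genes searched) mostly peaked in the same organs as that gene. The listed genes were chosen by their counts in microglia and AMs, so this follows from the choice and lends it no support. Ceacam10 was most like Cxcr2 (r = 0.92) and N4bp3 (0.92), both higher in Zeb2KO AMs and Zeb2KO microglia, followed by Egln3 (0.86). Bglap3 was most like Oscar (0.998), Krt6b (0.997) and Stfa1 (0.997), and Cd177 most like Krt6b, Stfa1 and Cyp21a1 (0.99 each), genes read almost only in Zeb2KO AMs. Fcrla was most like Rab30 (0.97), Lax1 (0.96) and Cacnb4 (0.93), and Hpse most like Tnfsf8 (0.94), Cd5 (0.92) and Tnfaip8 (0.90), all highest in Zeb2KO microglia. Cd101 was most like Def6 (0.96), Vrk1 (0.95) and D8Ertd82e (0.95). Ceacam1 was most like Gna11 (0.99), Adprh (0.98) and Rnf215 (0.98), genes highest in microglia of both genotypes. With 1 or 2 high libraries behind most of these values, they describe those libraries and are given with no test.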

How the data were processed

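Libraries of 3′ transcript tags were made from sorted single cells, 1 per organ and genotype. The authors aligned reads to mm10 and deposited UMI counts per gene and cell, made with Cell Ranger. By the paper, KCs and AMs were run on a NextSeq and microglia, SMs and CMs on a HiSeq, with different Cell Ranger versions. Free RNA was not corrected. Barcodes more than 3 median absolute deviations out in log UMIs, log genes or, upwards, mitochondrial share were dropped. Cells of each organ were clustered by Leiden (resolution 0.8, 2000 variable genes, 30 components, 15 neighbours) without the 7 genes, and clusters named as other cell types from marker lists left out; a CM cluster led by smooth muscle genes and an SM cluster led by Fcer2a met no list's criteria and were kept. No doublet caller was run; leaving out the 5% of cells with the most UMIs was an alternative. UMIs were summed to CPM, and log2 ratios used a pseudocount of 1 CPM. Shares at equal depth were taken at 1500 UMIs per cell (seed 1), without the cells that had fewer. Left out in this way were 28 of 6974 WT AMs, 833 of 3202 WT SMs and 539 of 2994 Zeb2KO SMs.

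The only test was edgeR 4.0.16 (R 4.3.3) on the KC, SM and CM pairs with the organ as block, checked on simulated data, with DESeq2 1.42.0 as alternative. The pairing comes from the organ each pair shares. Other steps used Python 3.11.15, numpy 2.4.6, scipy 1.17.1 and leidenalg 0.10.2. The text names the 7 genes, called genes of their related lists and neighbours, the 3 genes most like each, the 5 most correlated over cells and the 5 highest others of the same pattern, of which 1 is not reported here. Genes on a sex chromosome were left out of the lists of like, correlated and highest genes. The genes and lists were chosen with earlier results of these data known.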

Additional observations from a re-analysis of the deposited data

Results flagged for a closer look

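Sulf2, which encodes a sulphatase of heparan sulphate, lay on opposite sides in the 2 organs where the listed genes were high, with a log2 ratio of Zeb2KO to WT of 1.91 in microglia and -2.80 in AMs. Each value compares 1 library with 1 library, and the difference was not tested.

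Cells left out as other types held several of the genes in libraries of both genotypes, and no difference between genotypes was tested. Fcrla was seen in 51.7% of 143 cells named as B cells from WT KCs, 55.9% of 34 from Nr1h3fl/fl WT KCs and 46.3% of 134 from Zeb2KO KCs. The mean log2 ratio of macrophage markers to the other cells of the organ was only -0.788 in this liver cluster, against -3.13 in the B cell cluster of spleen. Whether the liver barcodes held a second cell was not tested. In spleen it was seen in 37.2% of 637 B cells from the WT and 45.6% of 375 from the Zeb2KO library. In colon, Fcrla was seen in 35.7% of 14 plasma cells of the WT and 38.1% of 21 of the Zeb2KO library. A small colon cluster with leading genes of both B cells and endothelial cells, left unnamed here, had Fcrla in 47.1% of 17 WT and 29.2% of 24 Zeb2KO cells and Ceacam1 in 29.4% of the 17 WT cells.

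Hpse was seen in 42.0% of 131 fibroblasts from the WT and 46.3% of 123 from the Zeb2KO library of colon. In the epithelial cells of colon, 12 from the WT and 11 from the Zeb2KO library, Ceacam10 was seen in 83.3 and 54.5%, Cd177 in 58.3 and 63.6% and Ceacam1 in 100 and 90.9%. These shares are not brought to equal depth.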

How the results depend on the processing

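Over 35 alternatives in the 5 organs, which of the 7 genes were called higher changed only with a floor of 50 CPM, which left 3 in microglia and 3 in AMs, without Cd101 in either. No called value changed sign. The size of the log2 ratios depended on the pseudocount. With 0.1 CPM they were 9.90 for Ceacam10, 8.49 for Hpse and 9.48 for Fcrla in microglia, and 11.62 for Ceacam10, 10.68 for Cd177 and 13.29 for Bglap3 in AMs. With 5 CPM they were 6.26 for Ceacam10, 5.11 for Hpse, 1.72 for Cd101 and 5.58 for Fcrla in microglia, and 6.002 for Ceacam10, 5.50 for Cd177 and 8.09 for Bglap3 in AMs. Scaling by TMM factors gave 8.45 for Ceacam10, 7.91 for Cd177, 1.70 for Cd101 and 10.52 for Bglap3 in AMs. The number of all genes called higher with floors of 5 CPM, 50 CPM and none was 468, 156 and 672 in microglia, 454, 164 and 643 in AMs, 376, 95 and 494 in KCs, 302, 69 and 429 in SMs and 127, 29 and 178 in CMs. The share of cells with at least 2 of the genes was 66.7% unthinned, 13.6% at 1000 and 33.4% at 2000 UMIs per cell in Zeb2KO microglia, and 55.4, 19.5 and 35.4% in Zeb2KO AMs, by the construction of the thinning. Over the KC, SM and CM pairs, DESeq2 called 196 genes and edgeR with no filter on low counts 67. Leaving out 1 organ gave 0 to 39 genes (2 without SMs, 39 without CMs), and edgeR without the block that pairs the organs gave 0; the cause of these differences was not tested. In those organs the log2 ratios of the 7 genes at a pseudocount of 1 CPM ran from -0.65 (Fcrla in SMs) to 1.27 (Hpse in KCs, with the Nr1h3fl/fl library as WT) over the alternatives. Leaving out the SM cluster led by Fcer2a and the CM cluster led by Myh11, chosen after seeing the data, moved Ceacam1 in SMs to 2 UMIs in WT and 12 in Zeb2KO, a log2 ratio of 0.87 at a pseudocount of 1 CPM against 0.26 with the cluster. With 1 library a group, mouse, sort and genotype cannot be told apart, and counting intervals do not cover differences between mice.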
